A study of Mus musculus with 6 samples.

Results

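The 9 genes described here are transcription factors of the helper T cell lineages, Tbx21, Gata3, Rora, Bcl6 and Eomes, and helper cytokines, Ifng, Tnf, Il4 and Il2. They were chosen by gene symbol, without regard to any measured difference, and are 9 of the 37991 gene rows of the deposited count table. The RNA came from mouse spleen Treg (regulatory T cells, CD4 T cells that carry Foxp3 and hold immune responses in check), enriched for CD4 and sorted for YFP. There were 3 libraries labelled KAP1 deficient and 3 labelled wild type, KAP1 sufficient. The labels give the strain as C57BL/6 for deficient replicate 1 and every sufficient replicate, but as C57BL/7 and C57BL/8 for deficient replicates 2 and 3. The allele, the driver of the YFP and the deletion, the age of the mice, and whether libraries came from separate animals are not stated in the labels. P-values therefore measure only the spread between these libraries, which may be technical.

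Naive CD4 T cells become helper cells of several kinds, each set up by its own transcription factor. T-bet (encoded by Tbx21) drives Th1 cells and their cytokine interferon gamma (Ifng), and the related T-box factor Eomes does so in CD8 T cells and natural killer cells. GATA3 drives Th2 cells and Il4, ROR alpha (Rora) takes part in the Th17 program, and BCL6 is the factor of follicular helper cells. Treg use low or moderate amounts of the same factors while FOXP3 holds down effector cytokines, above all Il2. KAP1, the product of Trim28, is a chromatin co-repressor that is brought to its targets by KRAB zinc finger proteins.

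Trim28 went against the label in 1 library of each group, which bears on every result below. Deficient replicates 1, 2 and 3 held 232, 185 and 2544 Trim28 counts, against 2462, 2483 and 218 in sufficient replicates 1, 2 and 3. Libraries held 9954344 to 10994745 counts. The upper limit for a gene with 0 counts, set at 3 counts, was 0.273 to 0.301 CPM (counts scaled to the library total) and covers counting error only. Treg markers were high in every library, with 5934 to 6733 Foxp3 counts in deficient and 6401 to 7546 in sufficient libraries. With replicates 1 and 2, 2 of 12 Treg markers rose (Ikzf2, Cd3d) and 2 fell (Foxp3, by 0.25 on the log2 scale, and Cd4). Among all 12183 genes tested with those replicates, 17.4% were called by edgeR in either direction. Mitochondrial genes took 1.34%, 1.33% and 1.61% of counts in deficient replicates 1 to 3 and 1.92%, 2.1% and 1.41% in sufficient replicates 1 to 3, lowest in the libraries with low Trim28. Results are therefore given for all 6 libraries as labelled, for the 4 libraries whose Trim28 matches their label (replicates 1 and 2 of each group), which were thus kept by a measured value and set low against high Trim28, and, as values without any mean or test, for the libraries with low Trim28 (deficient 1 and 2, sufficient 3) beside those with high Trim28 (deficient 3, sufficient 1 and 2).

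With all 6 libraries as labelled, 0 of the 9 genes passed the edgeR test at an adjusted p of 0.05, 1 (Tnf) had an unadjusted p under 0.05, and DESeq2 and limma-voom called 0. Of the genes that passed the filter on low counts, 0.0165% were called in either direction, 2 of 12158, and 944 had an unadjusted p under 0.05. The low-count filter kept 7 of the 9 genes and left out Il4 and Il2. With the 4 libraries, Tbx21, Gata3, Ifng and Tnf fell, no member rose, and Rora, Bcl6 and Eomes were not called. There 17.4% of the 12183 genes tested were called in either direction and 7.39% were called lower. The median log2 fold change of the 7 genes was -0.44, beside -0.002 over all genes tested, and in the fit of all 6 libraries it was -0.28, beside -0.004. In bulk RNA, fewer cells of a kind and less RNA per cell cannot be told apart.

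**Figure D1:**
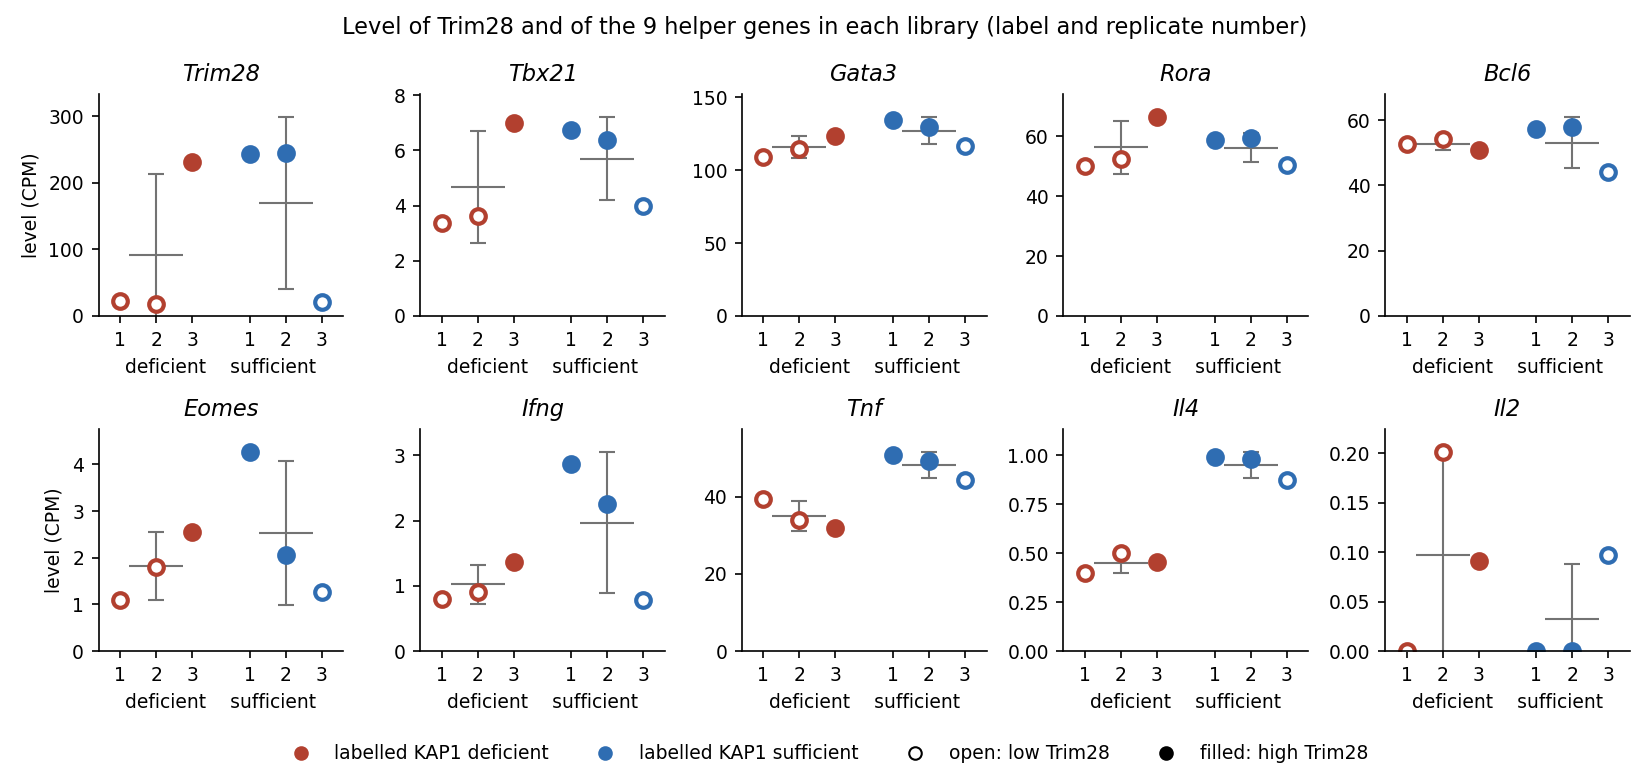
Level in CPM (y axis, from 0) of Trim28 and the 9 helper genes in each library, by label and replicate number (x axis); grey bars are the mean ± SD of 3 libraries, and open symbols mark low Trim28. Tbx21, Gata3, Rora, Eomes and Ifng are lower in every open than in every filled symbol, whereas Tnf and Il4 are lower in every library labelled deficient than in every one labelled sufficient.

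The genes fell into 2 patterns over the libraries. Tbx21, Gata3, Rora, Eomes and Ifng, 5 of the 9, were lower in each low-Trim28 library than in each high-Trim28 library, and overlapped between the labels. Over the genes of the 6-library fit, 14.5% had this pattern. Ifng passed the low-count filter of that fit only through the high-Trim28 libraries, so its pattern was built into its being tested. For Eomes the closest libraries held 18 counts (deficient replicate 2) and 21 counts (sufficient replicate 2). Whether that gap exceeds counting error was not tested. Tnf and Il4 were lower in each library labelled deficient than in each labelled sufficient, whatever the Trim28 level, as were 6.05% of genes of that fit, which did not hold Il4. Bcl6 and Il2 overlapped either way. In the 4 libraries, 8 of the 9 genes (every one but Il2) were lower in both deficient than in both sufficient libraries, beside 29.4% of the 12183 genes of that fit, which held neither Il4 nor Il2.

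The factors are described first. Tbx21 (ENSMUSG00000001444, mm10, chromosome 11, 97098071 to 97115331) had 34, 36 and 77 counts in deficient replicates 1 to 3, against 68, 65 and 41 in sufficient replicates 1 to 3. In CPM these were 3.37, 3.62 and 7.00 in deficient and 6.73, 6.38 and 3.98 in sufficient libraries. Deficient replicate 3 was thus the highest library and sufficient replicate 3 lay near deficient replicates 1 and 2. Tbx21 averaged 4.66 ± 2.03 CPM in deficient and 5.70 ± 1.5 CPM in sufficient libraries (SD, n = 3 each). By label it changed by -0.28 ± 0.31 log2 units (SE; adjusted p = 0.815, edgeR). Over the 4 libraries it changed by -0.90 ± 0.22 log2 units (adjusted p = 0.0108, edgeR), to 3.49 ± 0.172 CPM in deficient replicates, against 6.56 ± 0.244 CPM in sufficient ones (SD, n = 2 each). That call was lost without deficient replicate 1 (adjusted p = 0.05004) or sufficient replicate 1 (0.0510) in edgeR, and with DESeq2's Wald test (0.169).

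Gata3 (ENSMUSG00000015619, chromosome 2, 9857078 to 9890034) was the most abundant factor, with 109, 115 and 124 CPM in deficient and 135, 130 and 117 CPM in sufficient replicates 1 to 3. The 3 libraries with low Trim28 lay between 109 and 117 CPM and the other 3 between 124 and 135 CPM. Gata3 changed by -0.14 ± 0.07 log2 units by label (SE; adjusted p = 0.654, edgeR). With the 4 libraries this was -0.24 ± 0.06 (edgeR adjusted p = 0.0111), at 112 ± 4.03 CPM in deficient and 132 ± 3.43 CPM in sufficient replicates (SD, n = 2 each). The call was lost without deficient replicate 1 (adjusted p = 0.0920) or sufficient replicate 1 (0.0721) in edgeR and with DESeq2 (0.107).

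Rora (ENSMUSG00000032238, chromosome 9, 68653786 to 69388246) had 49.9, 52.5 and 66.3 CPM in deficient and 58.6, 59.5 and 50.5 CPM in sufficient replicates 1 to 3. Deficient replicate 3 was again the highest library. The label means were nearly equal, at 56.2 ± 8.81 CPM in deficient and 56.2 ± 4.97 CPM in sufficient libraries (SD, n = 3 each). With the 4 libraries its log2 fold change of -0.20 ± 0.07 (SE) did not pass the edgeR test (adjusted p = 0.0738), and passed with upper-quartile factors only (-0.23, adjusted p = 0.0401).

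Bcl6 (ENSMUSG00000022508, chromosome 16, 23965052 to 23988852) had 52.6, 54.3 and 51.0 CPM in deficient and 57.3, 58.0 and 44.3 CPM in sufficient replicates 1 to 3. The lowest library was sufficient replicate 3, and the groups overlapped by label and by Trim28 level. Its log2 fold changes were -0.02 ± 0.10 with 6 and -0.10 ± 0.07 with 4 libraries (SE, edgeR adjusted p = 0.970 and 0.369), and none of the alternatives run on either fit called it.

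Eomes (ENSMUSG00000032446, chromosome 9, 118478212 to 118486132) was scarce, with 11, 18 and 28 counts in deficient and 43, 21 and 13 in sufficient replicates 1 to 3. Sufficient replicate 1 alone set the upper end. Eomes changed by -1.11 ± 0.40 log2 units over the 4 libraries (SE; adjusted p = 0.0678, edgeR), by -0.50 without sufficient replicate 1, and -1.51 without deficient replicate 2 and -1.55 without sufficient replicate 2, where it passed (adjusted p = 0.0253 and 0.0182). It also passed without the low-count filter (adjusted p = 0.0115, edgeR) and with upper-quartile factors (0.0485), 4 of 11 alternatives in all. By label it was -0.47 ± 0.47 (edgeR adjusted p = 0.797).

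**Figure D2:**
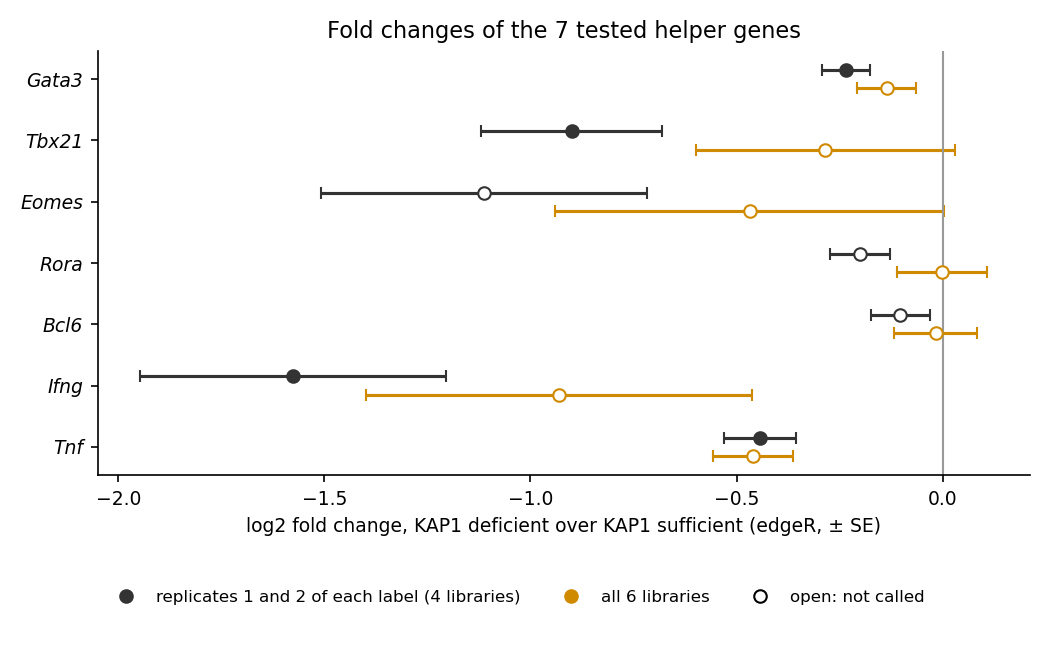
Log2 fold change of KAP1 deficient over KAP1 sufficient (x axis) with its standard error for the 7 genes tested by edgeR, from replicates 1 and 2 (dark) and from all 6 libraries (orange); filled symbols passed an adjusted p of 0.05. Tbx21, Gata3, Ifng and Tnf are filled in the 4-library fit and no gene is filled in the 6-library fit, and the Tnf values of both fits lie close together at -0.44 and -0.46.

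Among the cytokines, Ifng (ENSMUSG00000055170, chromosome 10, 118441046 to 118445892) had 8, 9 and 15 counts in deficient and 29, 23 and 8 in sufficient replicates 1 to 3. Every library was therefore above the limit that a count of 0 allows, by a small margin. In CPM, deficient replicates held 0.794, 0.904 and 1.36 and sufficient replicates 2.87, 2.26 and 0.777. Over the 4 libraries Ifng changed by -1.58 ± 0.37 log2 units (SE; adjusted p = 0.00852, edgeR), at 0.849 ± 0.0782 CPM in deficient and 2.56 ± 0.432 CPM in sufficient replicates (SD, n = 2 each). It passed the low-count filter there through its sufficient libraries, so a difference was built into its being tested. Without any such filter the adjusted p was 0.00161. The call was lost without deficient replicate 1 (adjusted p = 0.0502) or sufficient replicate 1 (0.0993) in edgeR and with DESeq2 (0.174). The change by label was -0.93 ± 0.47 log2 units (adjusted p = 0.654, edgeR).

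Tnf (ENSMUSG00000024401, chromosome 17, 35199381 to 35202007), a broadly acting inflammatory cytokine, was far more abundant, with 397, 337 and 350 counts in deficient and 512, 502 and 457 in sufficient replicates 1 to 3. In CPM these were 39.4, 33.9 and 31.8 in deficient and 50.7, 49.3 and 44.4 in sufficient libraries. The 3 deficient libraries lay below the 3 sufficient ones, and the deficient library with high Trim28 was the lowest of the 6. Tnf averaged 35.0 ± 3.91 CPM in deficient and 48.1 ± 3.32 CPM in sufficient libraries (SD, n = 3 each). The log2 fold change by label was -0.46 ± 0.10 (SE), with an unadjusted edgeR p of 0.000875 and an adjusted p of 0.632, and with sufficient replicate 3 left out it was -0.51 (edgeR adjusted p = 0.0099). Over the 4 libraries Tnf changed by -0.44 ± 0.09 log2 units (adjusted p = 0.00253, edgeR), and it was called in 11 of the 11 alternatives run on that fit, with adjusted p-values of 4.62e-06 to 0.0307.

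The genes beside Tnf in the lymphotoxin cluster did not pass. Lta, which encodes lymphotoxin alpha and lies 1158 bases away, had 899, 952 and 894 counts in deficient and 999, 923 and 981 in sufficient replicates 1 to 3. It changed by -0.03 ± 0.07 log2 units over the 4 libraries (SE; adjusted p = 0.810, edgeR). For Ltb, which encodes lymphotoxin beta, it was -0.11 ± 0.05 (edgeR adjusted p = 0.186). Whether Tnf changed more than these neighbours was not tested.

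Il4 (ENSMUSG00000000869, chromosome 11, 53602982 to 53618669), the Th2 cytokine, had 4, 5 and 5 counts in deficient and 10, 10 and 9 in sufficient replicates 1 to 3. Like Tnf it was lower in every deficient than in every sufficient library. It averaged 0.451 ± 0.0528 CPM in deficient and 0.949 ± 0.0649 CPM in sufficient libraries (SD, n = 3 each), a difference of -0.50 CPM with an exact two-sided permutation p of 0.1, the smallest that 3 against 3 libraries can give. Without the low-count filter edgeR gave an adjusted p of 0.751 with 6 and 0.250 with 4 libraries. Il4 rests on 43 counts in all.

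Il2 (ENSMUSG00000027720, chromosome 3, 37120523 to 37125959), the growth factor that Treg take up but are known not to make, had 0, 2 and 1 counts in deficient and 0, 0 and 1 in sufficient replicates 1 to 3. Each library was under the limit that a count of 0 allows, so no fold is given, and the exact two-sided permutation p was 0.7. No Il2 level above that limit was detected.

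Per kilobase of exon, the level ran in the order Gata3, Tnf, Bcl6, Rora, Tbx21, Ifng, Il4, Eomes and Il2, averaged over the 6 libraries. Gata3 stood at 30.5 ± 2.44 CPM per kb and Tnf at 25.4 ± 4.80, with ranges that overlapped (27.4 to 33.8 and 19.4 to 30.9; SD, n = 6). Bcl6 (7.90 ± 0.747), Rora (4.30 ± 0.489) and Tbx21 (2.08 ± 0.68) followed, each with a range apart from its neighbour above. The ranges of Ifng (1.15 ± 0.678) and Tbx21 overlapped, as did those of Ifng and Il4 and of Il4 (0.57 ± 0.226) and Eomes (0.523 ± 0.277). Il2 was the lowest, at 0 to 0.176 CPM per kb.

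**Figure D3:**
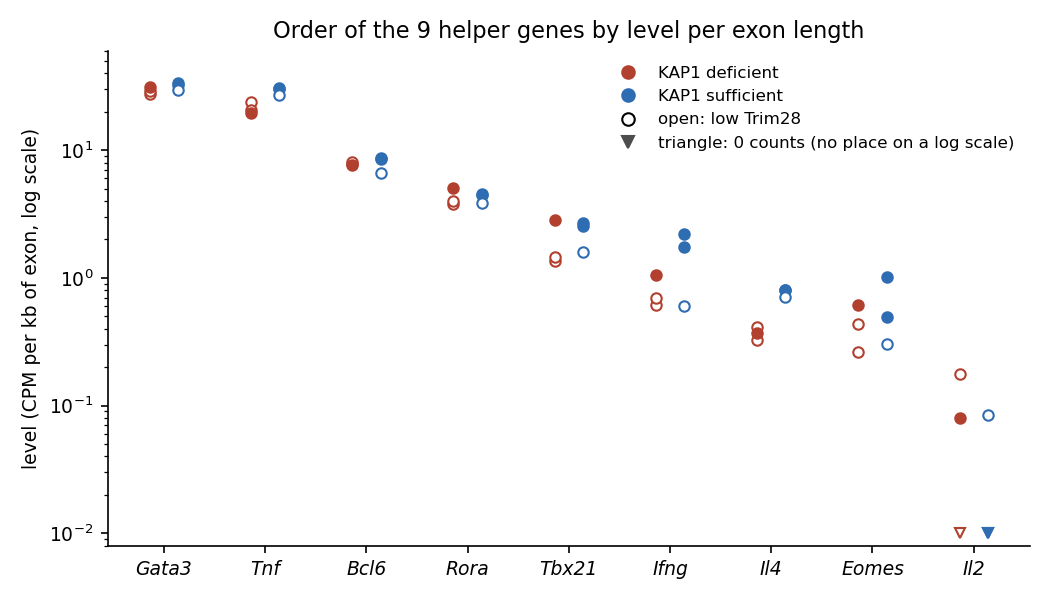
Level of the 9 helper genes in CPM per kilobase of exon (y axis, log scale), one symbol per library, with deficient libraries left and sufficient libraries right of each tick and open symbols for low Trim28; triangles mark libraries with 0 counts. Gata3 and Tnf share the top of the order and Il2 lies lowest, with 0 counts in deficient replicate 1 and sufficient replicates 1 and 2.

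The promoters of Ifng, Tnf and Il4 are printed because they are the cytokine genes whose libraries did not overlap, by Trim28 level (Ifng) or by label (Tnf, Il4); neither Tnf nor Il4 passed its test by label. Each window runs from 250 bases before to 50 bases after the RefSeq start site on GRCm38.p6, the assembly that mm10 names, on the strand of the gene: chr10:118440796-118441095 (plus) for Ifng, chr17:35201958-35202257 (minus) for Tnf and chr11:53618616-53618915 (minus) for the upstream start of Il4. Capitals mark matches on either strand. The T-box motif was searched as AGGTGT. For the GATA motif the letters were AGATAA. The core that NFAT factors bind was read as GGAAAA. Sites of the AP-1 kind were searched as TGANTCA, and TATA boxes, which help place the polymerase, as TATAAA.
Ifng: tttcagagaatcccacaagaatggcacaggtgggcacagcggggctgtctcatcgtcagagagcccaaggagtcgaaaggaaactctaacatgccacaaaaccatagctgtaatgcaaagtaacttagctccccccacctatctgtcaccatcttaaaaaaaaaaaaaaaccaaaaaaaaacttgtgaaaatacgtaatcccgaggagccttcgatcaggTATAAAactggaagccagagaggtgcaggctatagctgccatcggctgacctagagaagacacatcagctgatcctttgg
Tnf: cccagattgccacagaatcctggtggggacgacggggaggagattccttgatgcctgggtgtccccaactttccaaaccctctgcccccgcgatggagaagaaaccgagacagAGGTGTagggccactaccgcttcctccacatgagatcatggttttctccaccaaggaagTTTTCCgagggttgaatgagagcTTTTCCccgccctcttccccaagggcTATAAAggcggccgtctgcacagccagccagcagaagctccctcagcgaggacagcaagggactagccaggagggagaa
Il4: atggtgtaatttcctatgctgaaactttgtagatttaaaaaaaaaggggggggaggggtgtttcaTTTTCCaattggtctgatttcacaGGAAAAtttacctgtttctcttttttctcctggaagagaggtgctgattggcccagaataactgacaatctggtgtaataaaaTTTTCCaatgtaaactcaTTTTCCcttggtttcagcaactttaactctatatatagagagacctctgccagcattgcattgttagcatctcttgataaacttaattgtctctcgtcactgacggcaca

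The Tnf window held a T-box motif that starts 137 bases before the start site, NFAT cores at 78 and 55 bases and a TATA motif at 29 bases before it. The Ifng window held only a TATA motif, 30 bases before the start site, and the Il4 window held 4 NFAT cores. All 9 genes matched RefSeq promoters, 11 windows in all. NFAT cores were found for 5 of the 9 genes (Rora, Bcl6, Tnf, Il4 and Il2), TATA motifs for 3 (Ifng, Tnf and Il2), the T-box motif for Tnf alone, and GATA and AP-1 motifs for none. By window, 5 of the 11 held an NFAT core, 3 a TATA motif and 1 the T-box motif. Bcl6 and Il4 each also had 1 window without any of these motifs. Of all 32851 RefSeq promoter windows of that length, 23.4% held the NFAT core, 13.6% the TATA motif, 13.7% the T-box motif, 11.2% the GATA motif and 7.81% the AP-1 motif. None of these motifs overlapped another in the printed windows, and a match is a description of the letters only.

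Other genes of each helper program were taken from lists that leave out the 9 genes. With all 6 libraries 0 of the 86 genes of these lists tested were called by edgeR, 10 had an unadjusted p under 0.05, and DESeq2 and limma-voom called 0. The counts below for the 4 libraries stand beside 17.4% of all 12183 genes tested called by edgeR in that fit, 1214 higher and 900 lower. Of 12 tested Th1 genes, 3 fell with the 4 libraries, 0 rose and 9 were not called, with a median log2 fold change of -0.20. Il27ra, a receptor of the cytokine IL-27, fell by 0.34 ± 0.05 on the log2 scale (SE), with 340.0, 337 and 409 CPM in deficient and 426, 434 and 347 CPM in sufficient replicates 1 to 3. Like Tbx21 it was low wherever Trim28 was low. Stat4, which carries IL-12 signals, fell by 0.20 ± 0.06.

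Of 11 tested Th2 genes, 5 fell, 1 rose and 5 were not called over the 4 libraries, with a median of -0.31. Maf, a factor that activates Il4 and Il10, fell by 0.60 ± 0.06 (SE), with 125, 128 and 207 CPM in deficient and 183, 204 and 123 CPM in sufficient replicates 1 to 3. Gfi1, a repressor that supports Th2 growth, fell by 0.43 ± 0.08 and the chemokine receptor gene Ccr4 by 0.31 ± 0.07. Il17rb (-1.09 ± 0.27) and Il10 (-1.58 ± 0.49), named after their values were seen, also fell. Il10, like Ifng, passed the low-count filter through its sufficient libraries, with 0.694 and 0.502 CPM in deficient and 1.19 and 2.46 CPM in sufficient replicates 1 and 2. Il4ra, the receptor chain through which IL-4 signals, rose by 0.25 ± 0.05, with 442, 465 and 375 CPM in deficient and 387, 376 and 439.5 CPM in sufficient replicates 1 to 3.

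Of 9 tested Th17 genes, 2 fell, 1 rose and 6 were not called over the 4 libraries, with a median of -0.08. The aryl hydrocarbon receptor gene Ahr fell by 0.40 ± 0.10 (SE), with 25.1, 25.9 and 34.6 CPM in deficient and 31.6, 36.2 and 25.2 CPM in sufficient replicates 1 to 3, and the chemokine receptor gene Ccr6 rose by 0.29 ± 0.08. Of 14 tested follicular helper genes, 4 fell, 2 rose and 8 did not pass, with a median of -0.15. The costimulatory receptor gene Icos fell by 0.60 ± 0.07, the inhibitor gene Id3 by 0.63 ± 0.07 and the inhibitory receptor gene Pdcd1 by 0.34 ± 0.08, while the signalling adaptor gene Sh2d1a rose by 0.41 ± 0.08. Prdm1 (-0.54 ± 0.13) and Il21r (0.16 ± 0.05), named after their values were seen, were the remaining called genes. This list mixes genes that promote the follicular fate with genes that restrain it, Prdm1 and Id3 among the latter. Its count and median therefore give no direction for the program.

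**Figure D4:**
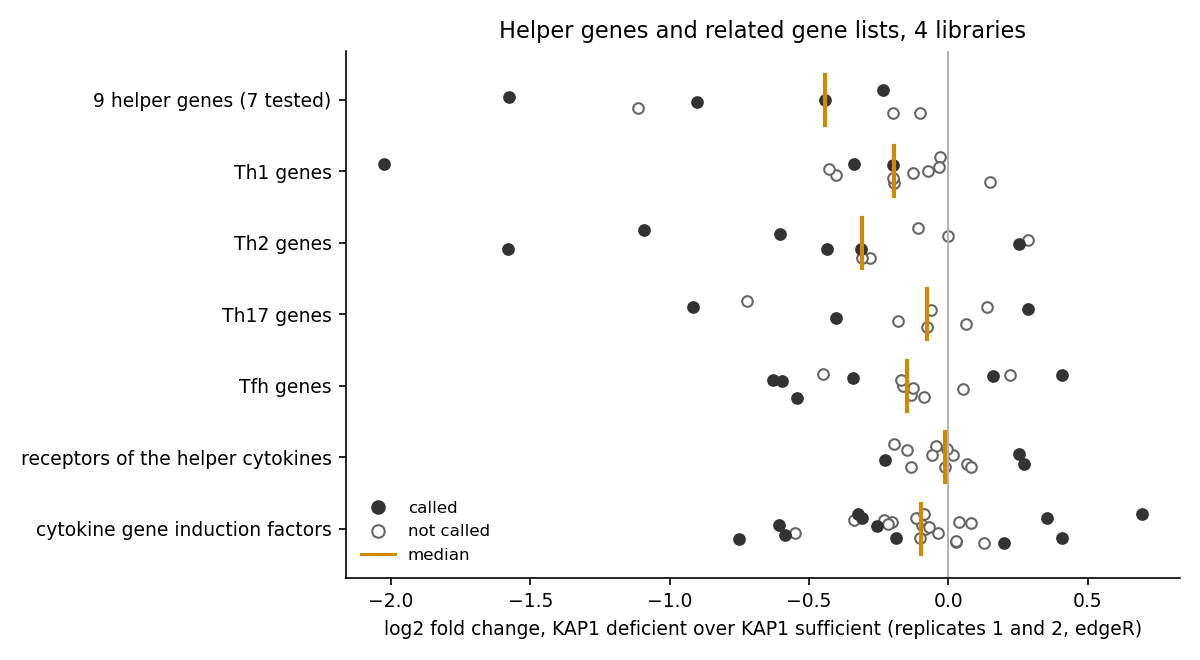
Log2 fold change of KAP1 deficient over KAP1 sufficient (x axis, replicates 1 and 2) for each tested gene of the 9 helper genes and of 6 related lists (y axis); filled symbols passed an edgeR adjusted p of 0.05 and orange bars are medians. The list medians lie between -0.01 (receptors) and -0.44 (the helper genes), and each list other than the helper genes and the Th1 genes has filled symbols on both sides of 0.

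Receptors and signal carriers of the helper cytokines moved both ways in the 4 libraries, with 2 of 13 higher, 1 lower and 10 not passing, at a median of -0.01. Over all 12183 genes of that fit, 17.4% were called in either direction. Ifngr1, the binding chain of the interferon gamma receptor, rose by 0.27 ± 0.06 (SE) and Il2rg, the shared chain of the IL-2 and IL-4 receptors, fell by 0.23 ± 0.05. The third was Il4ra, given above. Of 28 factors that switch cytokine genes on or off, 7 fell, 4 rose and 17 did not pass, at a median of -0.10. Egr1 (-0.75 ± 0.06), Nfatc1 (-0.59 ± 0.06) and Junb (-0.31 ± 0.05), which act downstream of the T cell receptor, fell, and Cbfb (0.35 ± 0.05), the partner of RUNX factors, rose. The AP-1 genes Fos and Jun, named after their values were seen, also rose, by 0.69 and 0.41. The other AP-1 genes of that list did not rise: Junb fell, as given above, and Fosb (-0.23 ± 0.28), Fosl2 (-0.34 ± 0.24) and Jund (0.03 ± 0.08) were not called. Nfatc1, the gene of an NFAT factor, had 216, 236 and 297 CPM in deficient and 322, 359 and 213 CPM in sufficient replicates 1 to 3, high wherever Trim28 was high. The other NFAT genes of that list, Nfatc2 (-0.08 ± 0.06) and Nfatc3 (-0.12 ± 0.05), were not called.

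Eomes, Ifng and Tbx21 are also made by natural killer and CD8 T cells, so markers of other cells stand here beside them. Of 11 natural killer markers (Eomes left out), Ncr1, Klrc1, Klre1 and Cma1 had 0 counts in every library. The summed counts of that list were 178, 157 and 97 in deficient and 98, 94 and 178 in sufficient replicates 1 to 3, highest where Trim28, Ifng and Eomes were low, mostly through Klrb1c. Of the 2 tested markers, Klrb1c rose by 1.94 ± 0.22 in the 4 libraries (SE). The other, Prf1, the most abundant gene of the list, changed by -0.02 ± 0.20 (adjusted p = 0.955, edgeR). Prf1 had 62, 56 and 61 counts in deficient and 63, 59 and 84 in sufficient replicates 1 to 3. Of 6 CD8 T cell markers, the gene of the CD8 alpha chain, Cd8a, had 0 to 5 counts per library, whereas that of the beta chain, Cd8b1, had 102 to 147 in deficient and 116 to 148 in sufficient libraries. The list summed to 245 to 408 counts in deficient and 282 to 373 in sufficient libraries. Of its 3 tested genes, 1 fell in the 4 libraries, the granule gene Nkg7, the most abundant of the list, by 0.48 ± 0.14 (SE). Cd8b1 (-0.22 ± 0.17) and Gzmm (0.13 ± 0.38) were not called. Nkg7 had 133, 124 and 235 counts in deficient and 196, 168 and 127 in sufficient replicates 1 to 3. The part of CD8 T cells in the Ifng values was not tested.

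Lists for further cell types follow. B cell markers summed to 5462 to 6661 counts in deficient and 5983 to 7091 in sufficient libraries, 96.6% of them from Ighm, with Ms4a1, Pax5 and Blnk at 0 to 1 per library. Of the other B cell genes, Cd79b had 89, 103 and 125 counts in deficient and 120, 107 and 80 in sufficient replicates 1 to 3, and Cd22 had 58, 39 and 78 in deficient and 96, 128 and 62 in sufficient replicates 1 to 3. Cd79a had 7 to 13 counts in deficient and 3 to 9 in sufficient libraries, and Igkc 4 to 40 in deficient and 10 to 41 in sufficient libraries. Over the 4 libraries 3 of the 4 tested members fell, of which Igkc passed the low-count filter through its sufficient libraries. Myeloid markers summed to 2667 to 3350 counts in deficient and 2804 to 3531 in sufficient libraries, 98.0% from Ctss, with Cd14 at 0, Cd68 at 26 to 56 in deficient and 38 to 47 in sufficient libraries, and Itgam at 18 to 27 in deficient and 12 to 16 in sufficient libraries, and 1 of the 3 tested members fell. Dendritic cell markers summed to 307 to 333 counts in deficient and 336 to 399 in sufficient libraries, 91.1% from Cd74, with Itgax, Siglech and Clec9a at 0 and Zbtb46 at 10 to 32 in deficient and 8 to 35 in sufficient libraries, and 1 of the 2 tested members fell. Basophil and mast cell markers, listed because basophils make Il4, summed to 8 to 14 counts in deficient and 9 to 18 in sufficient libraries, with Mcpt8, Ms4a2, Fcer1a and Prss34 at 0. Of 5 gamma delta T cell markers, 4 had a count row, which Trdc lacked. Those 4 summed to 365, 316 and 113 counts in deficient and 100, 139 and 305 in sufficient replicates 1 to 3, highest where Trim28 was low, mostly through Tcrg-C2. Both tested members, Tcrg-C1 and Tcrg-C2, rose over the 4 libraries. Sox13, at 0 to 4 counts per library, and Trdv4, at 0 to 2, were near 0 throughout. The part of these cells in the results was not tested.

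The headers of the authors' deposited table do not name the direction of its log2 fold changes. Trim28 stood at 3.11 in the authors' deposited table, so a positive value there runs the same way as more Trim28. In the fits above, deficient over sufficient, Trim28 changed by -0.90 ± 1.46 log2 units with 6 libraries and by -3.54 ± 0.08 with 4 (SE). Of the 9 genes, 8 (all but Il2) had a positive value in the authors' deposited table, from 0.08 for Bcl6 to 0.45 for Tbx21. The share of all genes with a positive value there was not taken, so that count is a description only. Tbx21 (0.45, adjusted p = 0.0136) and Rora (0.24, adjusted p = 0.0487) were past 0.05 in the authors' deposited table, 2 of the 8 with an adjusted p, where 3.02% of genes were called in that direction. Gata3 (0.17, adjusted p = 0.133), Ifng (0.30, 0.0937), Eomes (0.30, 0.133) and Tnf (0.09, 0.832) were not past it in the authors' deposited table. The SE for Ifng was 0.11 there, beside 0.37 in the 4-library fit above. Headers do not say whether the deposited fold changes were shrunk toward 0. Their sizes are therefore not comparable with those of the fits above. The q-values of that table were 0.301 for Tbx21 and 0.717 for Rora, so neither was past 0.05 by that measure. Nothing in the labels or headers says which library stood on which side of that comparison.

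Because the strand setting was not given, whether reads of overlapping genes were told apart by strand is not known. The annotation places 8 genes over the 9, of which 6 share exon bases, at most 336, and the 5 with a count row had at most 4 counts in any library. The rest had no count row, among them Gm49751, which shares 336 exon bases with Ifng. How many shared reads went to the members or were dropped was not measured.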

How the data were processed

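RNA of sorted splenic Treg was sequenced in 3 libraries labelled KAP1 deficient and 3 labelled KAP1 sufficient, with groups and replicate numbers taken from the sample titles. Libraries were made with a TruSeq kit, per the labels' protocols. The submitters' processing notes name TopHat2 2.1.1, HTSeq 0.7.2, DESeq2 and mm10, with no role or order. Annotation release and strand setting: not given in the sources used here. In the deposited table, values are whole raw counts by Ensembl gene. The authors' deposited comparison gives log2 fold changes, a test score, p-values (raw, adjusted and q-values) and a mean normalized signal, per the file headers.

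Gene names matched 32919 of 37991 rows, and positions and exon lengths came from GENCODE on the same assembly. CPM used library totals, 9954344 to 10994745 counts, without scaling factors, except that the log2 CPM of the likeness measure were TMM-scaled. The test was that of edgeR 4.0.16, run in R 4.3.3 (robust quasi-likelihood, TMM, filterByExpr), with Benjamini-Hochberg adjustment over all genes tested at 0.05. SEs were derived from fold change and F value. Il4 and Il2, under the filter, had exact permutation tests. The 6 libraries were not regrouped by Trim28 level for a test, since that would group them by a measured value. The 4-library fit keeps the labels but leaves out libraries by that same value, so it compares low with high Trim28, and its p-values carry that choice. Alternatives were DESeq2 1.42.0, limma-voom (limma 3.58.1), other scaling factors, no filter, a non-robust fit, a replicate block and leaving out each library. The fits were tested on simulated data. No pair of libraries was close enough to be counted once: chi-square per degree of freedom was at least 2.43. Tables used Python 3.11.15 with pandas 2.3.3 and scipy 1.17.1.

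The members, the lists and the 4-library fit were chosen with earlier results of these data known. Named genes were the members, Trim28, in each list the first 4 called genes by adjusted p, or 2 where none was called, abundant markers, and the 2 genes closest in profile to each of Tbx21, Gata3, Rora and Bcl6. A few genes that the naming rule picks are not reported here.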

Additional observations from a re-analysis of the deposited data

How the results depend on the processing

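With all 6 libraries, the 2 genes called became 6 with DESeq2's Wald test, 1 with limma-voom or the non-robust fit, 0 with the replicate block (705 at an unadjusted p under 0.05 by edgeR), and 1 to 807 without single libraries, the most without sufficient replicate 3. Members called stayed at 0 except without sufficient replicate 3 (range 0 to 1, Tnf). Leaving out both libraries whose Trim28 goes against the label gave 2114 genes and 4 members. In the 4 libraries, DESeq2 called 930 genes (43.8% of the 2114 remained) and 1 member, Tnf, and leaving out single libraries gave 1 to 5 members and 1632 to 1717 genes, where the single library left in a group is taken to vary as the other group does. The fewest members were left without deficient replicate 1 or sufficient replicate 1. Upper-quartile factors called 6 members and split the genes into 1046 higher and 1248 lower, in place of 1214 and 900. Of 77 values for single members, 63 gave the same call, 9 were no longer called, 5 became called and 0 changed sign. With 6 libraries 10 of 98 changed sign, none called: Rora (4.44e-05 with DESeq2 size factors, 0.00245 without the filter, -0.129 to 0.0734 without single libraries), Bcl6 (-0.132 to 0.046) and Eomes (-0.791 to 0.133). The cause was not tested. The replicate block in the 4 libraries gave 2359 genes and the same 4 members. Deviations of same-numbered libraries correlated at -0.365, -0.292 and -0.613, which the doubted libraries, both numbered 3, shape, so the numbers were not taken as pairs. The 5 members low with Trim28 and the 2 low by label were the same ones with DESeq2 or upper-quartile factors, added after the data were seen. Depth limits Ifng, Eomes, Il4 and Il2.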

Other observations

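Il21, the follicular helper cytokine gene that lies beside Il2, was under the low-count filter and was named after its values were seen. It had 1, 3 and 3 counts in deficient and 8, 7 and 6 in sufficient replicates 1 to 3, lower in every library labelled deficient, as were Tnf and Il4. The Th2 cytokine gene Il13 beside Il4 had 0 counts in each deficient library and 1, 1 and 0 in sufficient replicates 1 to 3, at or under the limit that a count of 0 allows. The Il2 neighbour 4932438A13Rik rose by 0.24 ± 0.06 on the log2 scale in the 4 libraries (SE, edgeR adjusted p = 0.0118).

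Likeness of profiles was measured as the root mean square distance between TMM-scaled log2 CPM values over the 6 libraries, each centred on its own mean. About 8608 genes with a mean log2 CPM of at least 3 were compared. The closest to Tbx21 were the integrin gene Itgb3 (0.0641), with 73.4, 69.3 and 138 CPM in deficient and 125, 123 and 80.3 CPM in sufficient replicates 1 to 3, and Art2b (0.0845), an ADP-ribosyltransferase gene. The closest to Gata3 were Mfsd10 (0.0199) and Tmem131l (0.0218), to Rora Atad5 (0.035) and Stard4 (0.0374), and to Bcl6 Dhcr7 (0.0395) and Rpf2 (0.0415).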
